A study of Homo sapiens with 4 samples.

Results

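Long cassette exons are exons of more than 150 and up to 500 nt that a cell can either splice into a transcript or leave out. Here they were read from splice junctions: a skip junction joins the neighbouring exons directly, and 2 inclusion junctions lead into and out of the exon, 1 of them sharing the start and the other the end of the skip junction. An exon was a member when inclusion reads (the rounded mean of the 2 inclusion junctions) plus skip reads came to at least 20, with both above 0, in each of the 4 libraries, and for each exon the skip junction giving most reads was kept. This left 33177 long exons, in 7851 genes, of the 86331 cassette exons of 10 to 500 nt. Length and read number chose the members, so the size of the set is a description.

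The libraries come from HEK293T cells, a human embryonic kidney line, transfected with a plasmid that expresses SF3B1. The library called WT received the wild-type protein, and the other libraries received SF3B1 with the substitution R625H (1000 ng of plasmid), K666T (1000 ng) or K700E (2000 ng). No amount of plasmid is stated for WT. There was 1 library per group, so every test compares libraries and not conditions, and every interval covers counting error only.

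SF3B1 is the largest subunit of SF3b, the part of the U2 snRNP that holds the branch point of an intron before the 3′ splice site is chosen. Substitutions in its HEAT repeats, which recur in blood cancers and in uveal melanoma, are known for the use of cryptic 3′ splice sites a short way upstream of the usual ones. An exon is recognised as a unit across its length by factors at both of its ends, and human internal exons are usually shorter than the ones described here. Leaving out a coding exon whose length is not a multiple of 3 shifts the reading frame, and including an exon that carries a stop codon (a poison exon) can send the transcript to nonsense-mediated decay (NMD).

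The sequences that follow are those of the exons on which the results turn, read 5′ to 3′ from the GENCODE 29 transcripts that hold them. BRD9 is shown because it holds a poison exon that was included more often in mutant libraries, and it is printed from its first base to the annotated stop codon, which is in capitals.
BRD9: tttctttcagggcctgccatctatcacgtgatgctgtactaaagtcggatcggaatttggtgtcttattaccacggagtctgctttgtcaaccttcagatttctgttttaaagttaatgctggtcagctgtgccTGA
TRA2A holds an exon of a non-coding transcript that was included more often in K700E, and TBC1D15, WDR62, TRMT13, DDB2 and CLK1 hold coding exons that were left out more often in mutant libraries. In these, capitals mark the first 3 and the last 3 bases of the exon, which lie against the splice sites; of TRA2A and TRMT13 the first 300 bases are printed, with capitals at the start.
TRA2A: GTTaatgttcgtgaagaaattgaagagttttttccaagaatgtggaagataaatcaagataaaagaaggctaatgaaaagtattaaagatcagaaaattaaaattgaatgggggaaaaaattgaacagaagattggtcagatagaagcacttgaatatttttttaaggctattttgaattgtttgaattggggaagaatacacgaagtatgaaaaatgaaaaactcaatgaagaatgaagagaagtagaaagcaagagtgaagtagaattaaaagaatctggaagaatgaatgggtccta
TBC1D15: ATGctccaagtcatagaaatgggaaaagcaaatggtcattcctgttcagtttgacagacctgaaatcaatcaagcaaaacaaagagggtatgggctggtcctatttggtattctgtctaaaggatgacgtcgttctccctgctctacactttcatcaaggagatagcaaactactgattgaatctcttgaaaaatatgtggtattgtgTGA
WDR62: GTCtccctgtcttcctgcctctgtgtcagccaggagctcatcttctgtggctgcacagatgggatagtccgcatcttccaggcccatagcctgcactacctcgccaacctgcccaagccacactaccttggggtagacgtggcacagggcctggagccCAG
TRMT13: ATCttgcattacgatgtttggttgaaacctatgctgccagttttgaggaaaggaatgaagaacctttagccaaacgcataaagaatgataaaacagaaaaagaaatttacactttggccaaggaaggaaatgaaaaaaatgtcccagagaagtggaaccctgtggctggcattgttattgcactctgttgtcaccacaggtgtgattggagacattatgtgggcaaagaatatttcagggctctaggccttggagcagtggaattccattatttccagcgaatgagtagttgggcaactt
DDB2: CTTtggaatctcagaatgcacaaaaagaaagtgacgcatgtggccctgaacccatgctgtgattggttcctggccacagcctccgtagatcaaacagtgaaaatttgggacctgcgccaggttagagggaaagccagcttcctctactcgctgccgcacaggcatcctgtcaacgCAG
CLK1: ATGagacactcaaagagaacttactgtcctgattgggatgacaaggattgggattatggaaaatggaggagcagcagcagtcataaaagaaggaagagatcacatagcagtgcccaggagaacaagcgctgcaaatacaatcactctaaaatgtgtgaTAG

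Most members were not annotated exons. Of the 33177, 8902 (26.8%) equal an internal exon of GENCODE 29, and in 13789 (41.6%) both inclusion junctions were read in every library. Of the 24275 that equal no annotated exon, 10347 use an annotated donor with an acceptor that is not annotated. The results therefore lead with the 6009 members, in 4161 genes, that equal an annotated exon, had both inclusion junctions read in every library, and had the less read inclusion junction at 0.25 times the other or more. This limit was set after the data had been seen, and these are called annotated balanced exons here. Of the 6009, 4440 are coding throughout, 510 partly coding, 335 lie in a 5′ UTR, 322 occur in transcripts marked for NMD alone and 396 in non-coding transcripts. Their median length was 187 nt, and their median inclusion was 97.1% for WT, 96.1% for R625H, 95.96% for K666T and 95.8% for K700E.

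The libraries held 66015665 to 72034388 uniquely mapped junction reads. WT stood apart: it listed 468541 junctions against 515327 to 536450 in the mutant libraries, and 21.9% of its reads fell in rows naming no gene against 28.4 to 29.6%. SF3B1 was at 506 to 521 CPM (reads of a gene scaled to the library total) in the 4 libraries, which does not check the labels, because the substitutions cannot be seen in these files. Of the markers of this line, NEFM, VIM, KRT18 and CDH2 were at 64.9 CPM or more and PAX2 at 1.75 to 2.65 CPM, and of those of other cell types PTPRC, CD3E, ALB, MYH7, HBB and GFAP were at 0.891 CPM or less, EPCAM at 7.43 to 9.34 and COL1A1 at 20.9 to 24.8. IFIT1, an interferon-stimulated gene, had 29.7 CPM for WT, 204 for R625H, 142 for K666T and 1192 for K700E. The substitution and this interferon-stimulated level differ together between the libraries and cannot be told apart. R625H and K666T received the same amount of plasmid, whereas in comparisons with K700E the amount differs as well.

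Against WT, more annotated balanced long exons fell than rose in each mutant library. A call is an adjusted p under 0.05 (two-sided Fisher's exact test on inclusion and skip reads, Benjamini-Hochberg adjusted over all 86331 cassette exons) together with a difference of at least 10 points of percent inclusion, which is the share of inclusion reads in inclusion plus skip reads. In R625H 13 exons fell and 2 rose, in K666T 20 fell and 6 rose, and in K700E 45 fell and 9 rose, 77 different exons in all. The starting level limits which way an exon can be called. Exons at 90% inclusion or more in WT, 1726 at 90 to 98% and 2510 at 98 to 100%, cannot rise by 10 points. The exons under 10%, which cannot fall by as much, number 628. The part of this limit in the excess of falls was not tested. Over the 23243 annotated balanced exons of 10 to 500 nt, the share that fell was 0.138% in R625H, 0.323% in K666T and 0.671% in K700E, and the share that rose was 0.0947%, 0.12% and 0.138%. The long exons fell in 0.216%, 0.333% and 0.749% of cases, near that background, and rose in 0.0333%, 0.0998% and 0.15%. At an unadjusted p under 0.05, 654, 786 and 942 of the 6009 differed, beside 2284, 2915 and 3546 of the 23243, which are similar shares. With other ways of counting inclusion the falls in K700E numbered 52 (upstream inclusion junction by itself), 80 (the lower of the pair), 95 (downstream by itself) and 103 (all junctions at each splice site summed).

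The BRD9 exon rose in all 3 mutant libraries, the one annotated balanced long exon to do so. BRD9 is a bromodomain subunit of the non-canonical BAF chromatin remodelling complex, and its 160-nt poison exon lies at chr5:869360-869519 on the minus strand (hg19). Inclusion was 3.05% for WT (1.86 to 4.97%), 20.97% for R625H (17.2 to 25.3%), 16.5% for K666T (13.5 to 20.1%) and 17.2% for K700E (13.8 to 21.2%), with 95% Wilson intervals in parentheses. WT was low and its interval overlapped none of the others. The rises were 17.9, 13.4 and 14.2 points (adjusted p = 1.13e-14, 1.43e-10 and 8.62e-11, Fisher's exact test), and all 3 comparisons share the WT library. BRD9 is also in the list of known targets of mutant SF3B1, so its direction there is not independent evidence.

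The reads placed this rise at 1 of 2 acceptors. A 150-nt form of the exon, chr5:869360-869509, shares the donor and starts 10 bases further in, after the run tttctttcag that opens the printed sequence. The junction into the 150-nt form had 13 reads for WT, 15 for R625H, 11 for K666T and 9 for K700E. The junction into the 160-nt form, at the upstream acceptor, had 14 reads for WT, 89 for R625H, 88 for K666T and 68 for K700E. The junction out of the exon, which both forms share, had 16, 74, 72 and 68 reads, and skip reads were 477, 309, 405 and 327. The upstream acceptor was thus read about as often as the downstream one in WT and far more often in each mutant library, while the downstream acceptor stayed between 9 and 15 reads.

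Besides BRD9, the annotated balanced exons under 10% inclusion in WT that rose were those of TBL1XR1 and TRA2A, both in K700E. TBL1XR1, a subunit of the NCoR corepressor complex, has a 206-nt poison exon. It was included in 2.49% for WT, 10.7% for R625H, 6.22% for K666T and 12.8% for K700E of reads. It rose in K700E by 10.3 points (adjusted p = 0.00158, Fisher's exact test) from 6 inclusion reads in WT, and the downstream inclusion junction by itself gave 8.18 points, under a call. TRA2A, an SR-like protein that activates splicing, has a 312-nt exon at chr7:23561740-23562051. Inclusion was 6.92% for WT (5.63 to 8.47%), 15.1% for R625H (13.2 to 17.2%), 14.2% for K666T (12.4 to 16.2%) and 17.1% for K700E (15.1 to 19.2%), and each mutant interval lay above that of WT. TRA2A rose in K700E by 10.2 points (adjusted p = 1.12e-12, Fisher's exact test), or 6.55 points and no call with the downstream junction by itself. In R625H and K666T the differences of 8.22 and 7.28 points were under the 10 a call needs (adjusted p = 4.19e-08 and 5.67e-07, Fisher's exact test). BIRC5, which encodes survivin, has a 165-nt exon of an NMD transcript at 1.80%, 2.27%, 2.76% and 2.53% in WT, R625H, K666T and K700E, not called in any library.

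Over the 322 exons found in NMD transcripts alone, the median difference from WT was above 0 in each mutant library, at 0.21, 0.23 and 0.37 points in R625H, K666T and K700E. Over the 4440 coding exons it was below 0, at -0.43, -0.49 and -0.56 points, and over all 6009 it was -0.33, -0.36 and -0.48 points. The 628 exons under 10% inclusion in WT, which cannot fall by 10 points, had medians of 0.22, 0.29 and 0.25 points. The parts of place and of starting level in these medians were not tested.

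**Figure D1:**
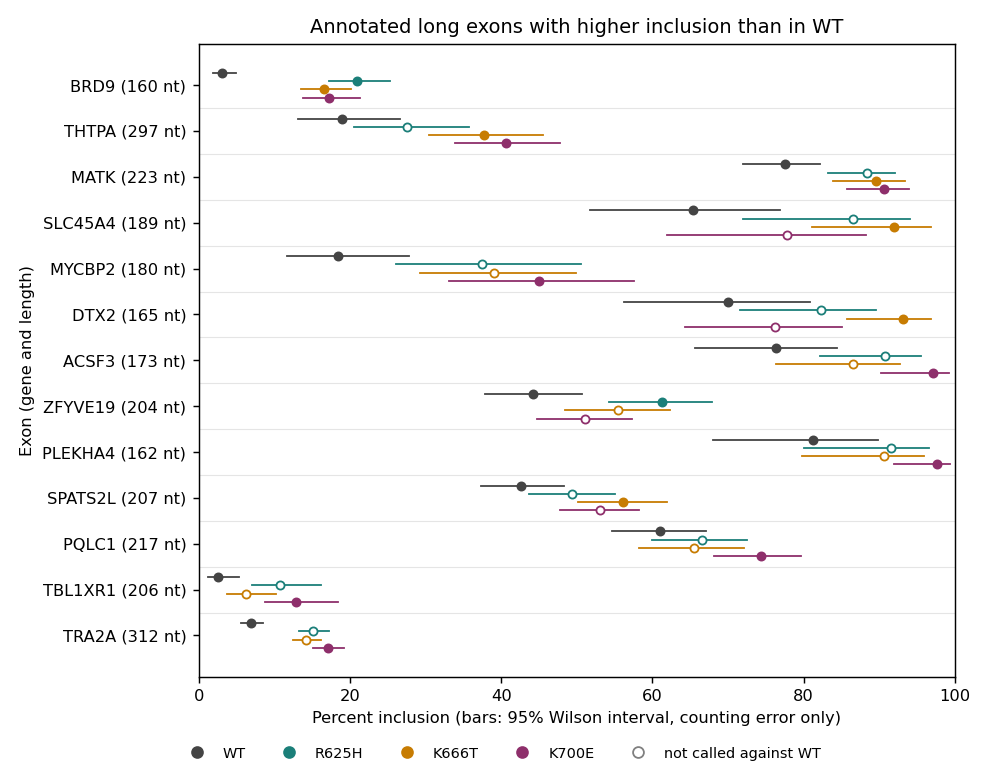
Percent inclusion (x axis, 0 to 100%) of each annotated balanced long exon that rose in at least 1 mutant library, in the 4 libraries. Points are single libraries, bars are 95% Wilson intervals of counting error and open points were not called against WT; BRD9, TBL1XR1 and TRA2A start under 10% in WT.

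The other exons that rose lie in genes of mixed roles, and most rest on few reads. THTPA, a thiamine triphosphatase, has a partly coding 297-nt exon at chr14:24025952-24026248, included in 18.9% for WT, 27.5% for R625H, 37.7% for K666T and 40.6% for K700E. It rose by 18.8 points in K666T and 21.7 in K700E (adjusted p = 0.0241 and 0.00191, Fisher's exact test), and with the downstream inclusion junction by itself the K700E difference was 9.92 points and was not called. MATK, a tyrosine kinase that inhibits Src-family kinases, has a partly coding 223-nt exon at 77.5%, 88.4%, 89.6% and 90.6% in WT, R625H, K666T and K700E, which rose in K666T and K700E. MYCBP2, an E3 ubiquitin ligase, has a 180-nt exon of a non-coding transcript that rose in K700E, from 16, 21, 32 and 27 inclusion and 71, 35, 50 and 33 skip reads, or 18.4%, 37.5%, 39.02% and 45%. ACSF3, a mitochondrial malonyl-CoA synthetase, has a 173-nt exon in its 5′ UTR at 76.3%, 90.8%, 86.6% and 97.1%, which rose in K700E, where the upstream inclusion junction by itself gave 1.89 points and no call.

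Rises in 1 mutant library were of this size too. ZFYVE19, a regulator of the abscission checkpoint, rose in R625H, at 44.2%, 61.3%, 55.5% and 51.05% in WT, R625H, K666T and K700E. In K666T, DTX2, a Deltex-family E3 ligase, was at 70%, 82.4%, 93.1% and 76.2% and rose, and SPATS2L rose from 42.7% to 56.1%. SLC45A4, a solute carrier, rose in K666T from 65.4% to 92%, on 46 inclusion and 4 skip reads. In K700E PQLC1 rose from 61.02% to 74.3%, and PLEKHA4, a phosphoinositide-binding protein, from 81.2% to 97.7%, where its gene was also higher, by 1.37 on the log2 scale. The calls of MATK in K666T and of PQLC1, PLEKHA4 and ZFYVE19 were each lost under at least 6 of the alternative settings. With the downstream inclusion junction by itself DTX2 and SPATS2L lost their calls in K666T (12.1 and 12.2 points). SLC45A4 lost its call with the upstream one (21.5 points), and so did MATK in K700E (11.6 points).

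The exons that fell in all 3 mutant libraries, against the same WT library, lie in TRMT13, TBC1D15 and WDR62, and none of the lengths is a multiple of 3. TRMT13, a tRNA methyltransferase, has a 433-nt coding exon at chr1:100613450-100613882, with inclusion of 88.2% for WT (82.1 to 92.4%), 72.6% for R625H (65.9 to 78.5%), 68.1% for K666T (61.2 to 74.3%) and 68.8% for K700E (61.1 to 75.6%). It fell, with differences of -15.5, -20.1 and -19.3 points (adjusted p = 0.0273, 0.000874 and 0.00196, Fisher's exact test), and no mutant interval reached that of WT. TBC1D15, a Rab GTPase-activating protein, has a 211-nt coding exon at chr12:72278591-72278801 at 89.7%, 78.99%, 79.4% and 78.8% in WT, R625H, K666T and K700E. Its skip reads were 50, 117, 123 and 122 and its inclusion reads 436, 440, 474 and 452, so WT differed from the others in skipping. With the upstream inclusion junction by itself its differences were -9.85, -9.80 and -7.67 points, all under a call. WDR62, a spindle pole protein, has a 161-nt coding exon at chr19:36562458-36562618 at 96.5%, 85.7%, 85.95% and 82.5%, with 6, 22, 26 and 33 skip reads. With the downstream inclusion junction by itself WDR62 lost its calls in R625H (-9.03 points) and K666T (-8.90), and with the upstream one TRMT13 lost its call in R625H (-15.1).

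**Figure D2:**
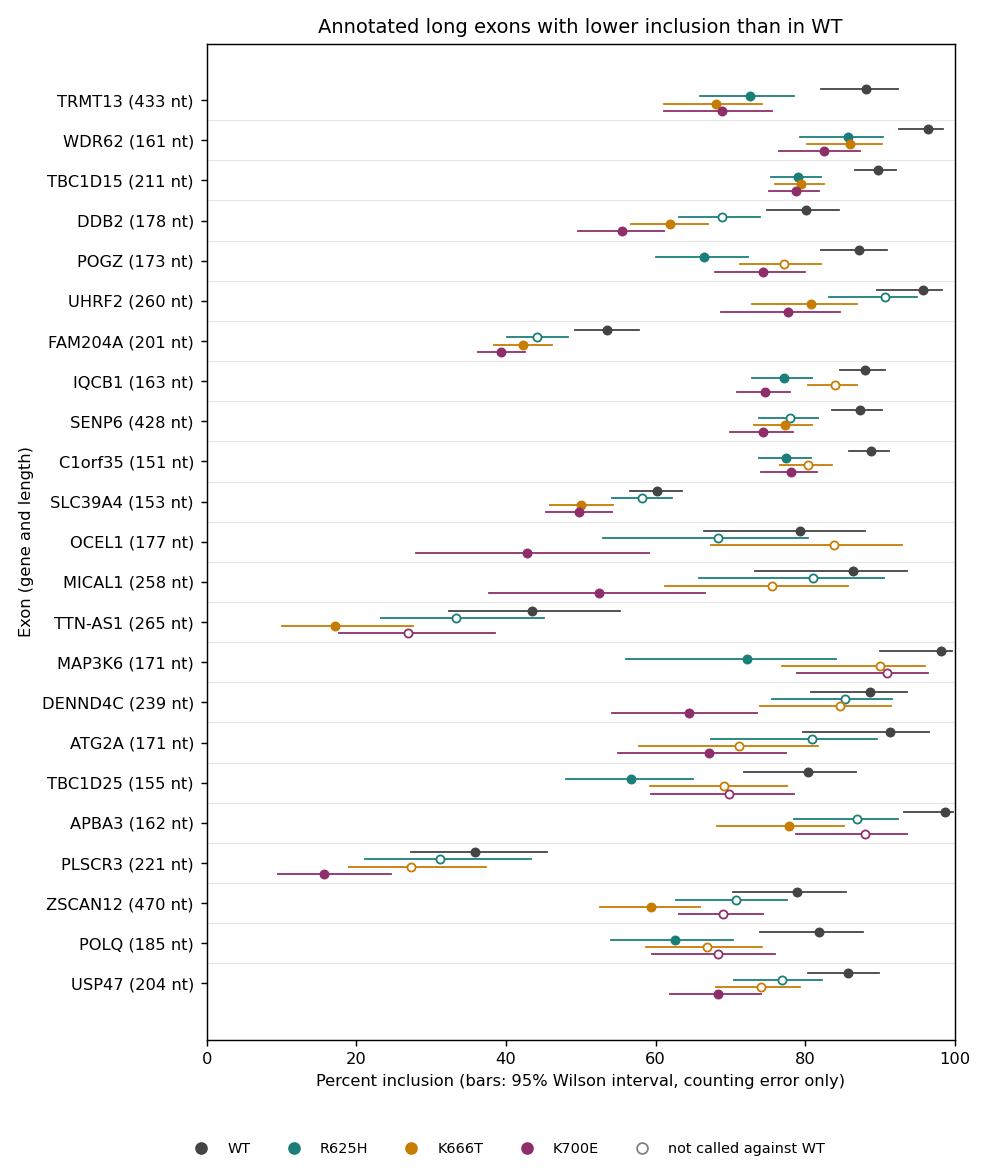
Percent inclusion (x axis, 0 to 100%) of annotated balanced long exons that fell in at least 1 mutant library, in the 4 libraries, those called in most libraries first. Points are single libraries, bars are 95% Wilson intervals of counting error and open points were not called against WT; TRMT13, TBC1D15 and WDR62 are filled in all 3 mutant libraries.

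Of the exons that fell in 2 of the 3 mutant libraries, those of DDB2, UHRF2 and POGZ had the largest differences. DDB2, which recognises ultraviolet damage in DNA, has a 178-nt coding exon at chr11:47256308-47256485. Its inclusion was 80.2% for WT (74.9 to 84.5%), 68.8% for R625H (63.2 to 74.01%), 61.99% for K666T (56.7 to 66.97%) and 55.5% for K700E (49.6 to 61.2%), with each mutant interval below that of WT. DDB2 fell, with differences of -18.2 points in K666T and -24.7 in K700E (adjusted p = 0.000153 and 1.13e-07, Fisher's exact test), and the difference of -11.3 points in R625H did not pass (adjusted p = 0.113, Fisher's exact test). The level of the DDB2 gene was higher than in WT by 0.22, 0.37 and 0.44 on the log2 scale in R625H, K666T and K700E. UHRF2, a RING finger protein that binds histones and DNA, has a 260-nt coding exon at 95.7%, 90.6%, 80.8% and 77.7% in WT, R625H, K666T and K700E, which fell in K666T and K700E against 4 skip reads in WT. POGZ, a zinc finger protein of heterochromatin, has a 173-nt coding exon at 87.2%, 66.5%, 77.2% and 74.4%, lowest in R625H, where it fell, with a difference of -20.6 points (adjusted p = 6.67e-05, Fisher's exact test), and it fell in K700E, with a difference of -12.8.

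Each gene list held few calls, and no list was tested for enrichment. In the DNA repair list, POLQ, the polymerase of theta-mediated end joining, has a 185-nt coding exon at 81.8%, 62.6%, 66.9% and 68.3% in WT, R625H, K666T and K700E. POLQ fell in R625H (adjusted p = 0.0433, Fisher's exact test), a call lost under 6 alternative settings. DCLRE1B, the Apollo nuclease of telomeres, has a 166-nt coding exon at 78.8%, 64.4%, 67.2% and 64.2%, which fell in K700E (adjusted p = 0.0283, Fisher's exact test), while the difference of -14.4 points in R625H did not pass (adjusted p = 0.061). The K700E call of DCLRE1B was lost under 4 alternative settings, among them the upstream inclusion junction by itself (-12.3 points). Over the 106 annotated balanced exons of 66 DNA repair and replication genes, 1 fell in R625H, none in K666T and 1 in K700E, beside 0.138%, 0.323% and 0.671% of all annotated balanced exons, and the medians were -0.22, -0.73 and -0.57 points. Over the 179 exons of 110 chromatin genes, the BRD9 exon rose in each mutant library and the UHRF2 exon fell in K666T and K700E, and the medians were -0.36, -0.47 and -0.55 points, beside -0.33, -0.36 and -0.48 over all 6009.

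In the list of centrosome, cilium and microtubule genes the exons that fell were those of WDR62, CDK5RAP2, CENPE and PIBF1. CDK5RAP2, a centrosomal scaffold, has a 237-nt coding exon at 79.04% for WT, 69.6% for R625H, 67.7% for K666T and 71.05% for K700E, which fell in K666T (adjusted p = 0.0418, Fisher's exact test), a call lost under 5 alternative settings. CENPE, the kinetochore kinesin, has a 204-nt coding exon at chr4:104074204-104074407 at 92.1%, 85.2%, 86.5% and 78.9% in the same order, which fell in K700E, with a difference of -13.2 points. PIBF1, a centrosomal protein, has a pair of such exons: the partly coding 299-nt one was at 84.2%, 73.2%, 75.6% and 69.1% and fell in K700E, and the coding 182-nt one was at 93.7%, 90.2%, 82.2% and 84.4% and fell in K666T. Over the 146 exons of 80 centrosome, cilium and microtubule genes, 1 fell in R625H, 3 in K666T and 3 in K700E and none rose, beside falls in 0.138%, 0.323% and 0.671% of all annotated balanced exons. The list's medians were -0.33, -0.82 and -0.92 points, beside -0.33, -0.36 and -0.48 over all 6009.

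Among splicing regulators, CLK1, a kinase of SR proteins, has a 161-nt coding exon at chr2:201726425-201726585. Inclusion was 92.4% for WT (89.5 to 94.6%), 86.7% for R625H (83.8 to 89.2%), 87.3% for K666T (84.5 to 89.6%) and 81.6% for K700E (78.8 to 84.02%), lowest in K700E. CLK1 fell in K700E, with a difference of -10.8 points (adjusted p = 8.24e-06, Fisher's exact test), or -8.64 points and no call with the upstream inclusion junction by itself. The level of the CLK1 gene was higher by 0.47, 0.63 and 0.56 on the log2 scale in R625H, K666T and K700E. CLK1 and TRA2A were the exons called against WT among the 65 annotated balanced exons of 44 SR and hnRNP regulator genes. Of all annotated balanced exons, 0.138%, 0.323% and 0.671% fell and 0.0947%, 0.12% and 0.138% rose in R625H, K666T and K700E. At these shares a list as small as the next ones can hold no call. None of 53 exons in 37 spliceosome genes was called, and SNRPB, a core Sm protein, had 2, 4, 3 and 11 skip reads beside 11490, 10776, 10774 and 15514 inclusion reads. None of 20 exons in 12 NMD genes was called, and RNPS1, a protein of the exon junction complex, has a partly coding 188-nt exon at 51.2%, 47.8%, 48.1% and 45.6%, where the K700E difference of -5.51 points was under a call (adjusted p = 0.000313, Fisher's exact test). Of 39 exons in 23 genes listed as known targets of mutant SF3B1, 1 rose in each mutant library, BRD9, and none fell. Over all 224 long members of 40 listed genes, most of them not annotated balanced exons, there were 5 rises and 4 falls for R625H, 3 and 9 for K666T, and 3 and 5 for K700E, beside 0.16%, 0.177% and 0.256% of rises and 0.277%, 0.543% and 1.22% of falls over all 86331 cassette exons. COASY, which makes coenzyme A, held 4 of the 5 rises and 2 of the 4 falls in R625H. TTI1, a partner of PIKK kinases, held 5 of the 9 falls in K666T. COASY has 21 members, 4 of them annotated, and TTI1 has 11, 1 of them annotated. Members of 1 gene can share junctions, so these calls may not be separate events.

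In R625H all 13 falls were in coding exons, and 1 of the 13 (7.69%) has a length that is a multiple of 3, against 1887 of the 4440 coding exons (42.5%). Among the coding exons that fell in K666T and K700E it was 6 of 15 (40%) and 11 of 32 (34.4%), and no difference between the libraries was tested. The one in R625H is MAP3K6, a MAP kinase kinase kinase, whose 171-nt exon was at 98.1% for WT, 72.2% for R625H, 90% for K666T and 90.9% for K700E and had the largest fall of an annotated balanced exon in that library, on 26 inclusion and 10 skip reads. TBC1D25, a Rab GTPase-activating protein, has a 155-nt exon at chrX:48403257-48403411 at 80.4%, 56.7%, 69.2% and 69.8%, lowest in R625H, where it fell, with a difference of -23.7 points (adjusted p = 0.0126, Fisher's exact test). TEX30, TRPT1 (a tRNA phosphotransferase), PPP2R5E (a regulatory subunit of PP2A) and MED16 (a Mediator subunit) fell, with differences of -12.4, -12.3, -11.02 and -10.8 points, and the calls of TRPT1 and PPP2R5E were lost with the downstream inclusion junction by itself (-11.1 and -9.33 points). C1orf35 was read more deeply, at 88.8% for WT (85.9 to 91.2%), 77.5% for R625H (73.9 to 80.7%), 80.3% for K666T (76.6 to 83.6%) and 78.1% for K700E (74.1 to 81.6%), and fell in R625H and K700E (adjusted p = 9.29e-05 and 0.000271, Fisher's exact test), while the difference of -8.50 points in K666T was too small for a call. With the upstream inclusion junction by itself C1orf35 lost both calls, at -9.02 and -7.61 points. IQCB1, a ciliary protein, has a 163-nt coding exon at 87.96%, 77.1%, 83.9% and 74.6% in WT, R625H, K666T and K700E, which fell in R625H and K700E.

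In K666T the largest fall among annotated balanced exons was in TTN-AS1, a non-coding RNA antisense to titin, from 43.5% in WT to 17.1%, on 12 inclusion and 58 skip reads. APBA3, an X11-family adaptor, has a 162-nt exon at 98.7%, 86.96%, 77.8% and 88% in WT, R625H, K666T and K700E, with 1, 12, 20 and 9 skip reads, and fell in K666T. ZSCAN12, a zinc finger gene, has a partly coding 470-nt exon at 78.9%, 70.7%, 59.4% and 68.99%, which fell, with a difference of -19.5 points. G2E3, an E3 ligase, has a 308-nt exon at 92.1%, 82.9%, 81.5% and 87.04%, which fell in K666T, while the difference of -9.24 points in R625H was too small for a call (adjusted p = 0.0203, Fisher's exact test). USPL1, a SUMO protease, PLEKHH3 and CHN1, a Rac GTPase-activating protein, fell, with differences of -14.02, -12.6 and -12.4 points, and so did ANKRD19P, a pseudogene transcript, with -12.8. The call of USPL1 was lost under 6 alternative settings, that of ANKRD19P with the downstream inclusion junction by itself (-11.8 points), and those of TTN-AS1 and ZSCAN12 with the upstream one (-20.1 and -16.2). MGA, a transcription factor that pairs with MAX, has a 234-nt coding exon at 97.5%, 94.1%, 83.8% and 91.01% in WT, R625H, K666T and K700E, lowest in K666T, where it fell. SENP6, a protease that trims SUMO chains, has a 428-nt coding exon at chr6:76412361-76412788 at 87.3%, 78.02%, 77.3% and 74.4%, which fell in K666T and K700E, calls lost with the downstream inclusion junction by itself (-8.38 and -9.94 points). SLC39A4, a zinc transporter, was at 60.1%, 58.2%, 50.1% and 49.8% and also fell in K666T and K700E, calls lost with the upstream one (-9.25 and -6.86).

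K700E had the most falls, and many were in the second exon of the gene. Of its 45 falls, 22 (48.9%) were second exons, against 1408 (23.4%) of the 6009, whereas 1 of 13 falls in R625H and 3 of 20 in K666T were. Among the 1098 exons at 10 to 90% inclusion in WT that were called in no mutant library, 32.15% were second exons. The 22 include both forms of the ABHD14B exon, which share junctions, and the part of starting level was not tested. PLD3, a lysosomal phospholipase D family protein, has a 378-nt second exon in its 5′ UTR at chr19:40871460-40871837. Its inclusion was 74.2% for WT (71.2 to 76.98%), 68.3% for R625H (65.1 to 71.4%), 65.7% for K666T (62.4 to 68.8%) and 59.8% for K700E (57.2 to 62.5%). PLD3 fell in K700E, with a difference of -14.4 points (adjusted p = 5.64e-10, Fisher's exact test), and the difference of -8.55 points in K666T was too small for a call (adjusted p = 0.00692). TSPO, a protein of the outer mitochondrial membrane, has a partly coding 211-nt second exon with 1498, 1184, 871 and 644 inclusion reads and 211, 211, 218 and 215 skip reads in WT, R625H, K666T and K700E, or 87.6%, 84.9%, 79.98% and 74.97%. TSPO fell in K700E, where the downstream inclusion junction by itself gave -9.30 points and no call, and where the level of its gene was lower, at -0.82 on the log2 scale against WT. In FAM204A, with a 201-nt second exon in the 5′ UTR, the skip reads differed more, at 236, 318, 361 and 575, than the inclusion reads, at 272, 252, 264 and 373, and the exon fell in K666T and K700E, the second of these calls lost with the upstream inclusion junction by itself (-8.53 points).

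Other second exons that fell in K700E belong to GLMP, a lysosomal membrane protein (58.4%, 56.6%, 52.01% and 45.1% in WT, R625H, K666T and K700E), USP47, a deubiquitinase (85.8%, 76.9%, 74.1% and 68.4%), and INTS12, an Integrator subunit (32.3%, 23.9%, 25.1% and 20.4%). ZC3H11A, RTN2 (a reticulon) and PREPL fell, with differences of -13.05, -16.05 and -12.7 points. ANAPC16, a subunit of the anaphase-promoting complex, TMEM141 and GPR75-ASB3 fell, with differences of -11.7, -12.1 and -10.8 points. The gene labelled GPR75-ASB3 was counted at 0.033, 0, 0.023 and 0 CPM in WT, R625H, K666T and K700E. Its exon had 205, 228, 251 and 352 inclusion plus skip reads, and which gene they come from was not settled. With the upstream inclusion junction by itself PREPL, ANAPC16, TMEM141, GPR75-ASB3, INTS12 and RTN2 were not called, with differences of -6.50, -2.78, -3.91, -6.05, -5.97 and -10.7 points.

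The other annotated balanced exons that fell in K700E lie in genes of mixed roles. The largest differences among annotated balanced exons were in OCEL1 (79.2% in WT, 42.9% in K700E) and MICAL1, an actin-oxidising enzyme (86.4% and 52.4%), on 15 and 22 inclusion reads in K700E. DENND4C, an exchange factor for Rab10, has a 239-nt exon at 88.7%, 85.3%, 84.6% and 64.4% in WT, R625H, K666T and K700E and fell. COMMD4, a COMM domain protein, has a 177-nt coding exon at 88.95% for WT (87.2 to 90.5%), 81.2% for R625H (78.9 to 83.2%), 79.6% for K666T (77.3 to 81.7%) and 74.5% for K700E (71.6 to 77.3%). COMMD4 fell in K700E (adjusted p = 8.89e-16, Fisher's exact test), and in R625H and K666T its differences of -7.77 and -9.37 points were too small for a call (adjusted p = 7.67e-06 and 8.72e-09). PPHLN1, a subunit of the HUSH silencing complex, was at 66.4%, 58.8%, 60.7% and 54.7% and fell in K700E. ATG2A, a lipid transfer protein of autophagy, fell from 91.3% to 67.2%, a call lost under 6 alternative settings, and PLSCR3, a phospholipid scramblase, from 35.9% to 15.7%, a call lost with the downstream inclusion junction by itself (-18.1 points). Over the 140 exons of 87 ubiquitin genes, DDB2 fell in K666T and K700E, USP47 fell and MYCBP2 rose in K700E, and none was called in R625H. Over the 115 exons of 73 trafficking genes 1 fell in each mutant library, that of TBC1D15. Beside these counts, 0.138%, 0.323% and 0.671% of all annotated balanced exons fell in R625H, K666T and K700E.

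Summed over the exons that fell, skip reads were higher and inclusion reads lower. Over the 45 that fell in K700E, skip reads were 53.7 CPM of all junction reads for WT, 70.8 for R625H, 71.7 for K666T and 98.9 for K700E, and inclusion reads were 181, 172, 164 and 158 CPM. Over the 13 that fell in R625H, skip reads were 6.11 CPM for WT and 13.4, 10.9 and 10.9 CPM for R625H, K666T and K700E. These exons were chosen by the same contrasts, so the sums are descriptions. Over all 6009 exons the pooled share of skip reads was 16.98%, 17.1%, 17.1% and 19.4%, and over the 15495 annotated balanced exons of 51 to 150 nt it was 17.5%, 17.7%, 17.8% and 19.3%.

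**Figure D3:**
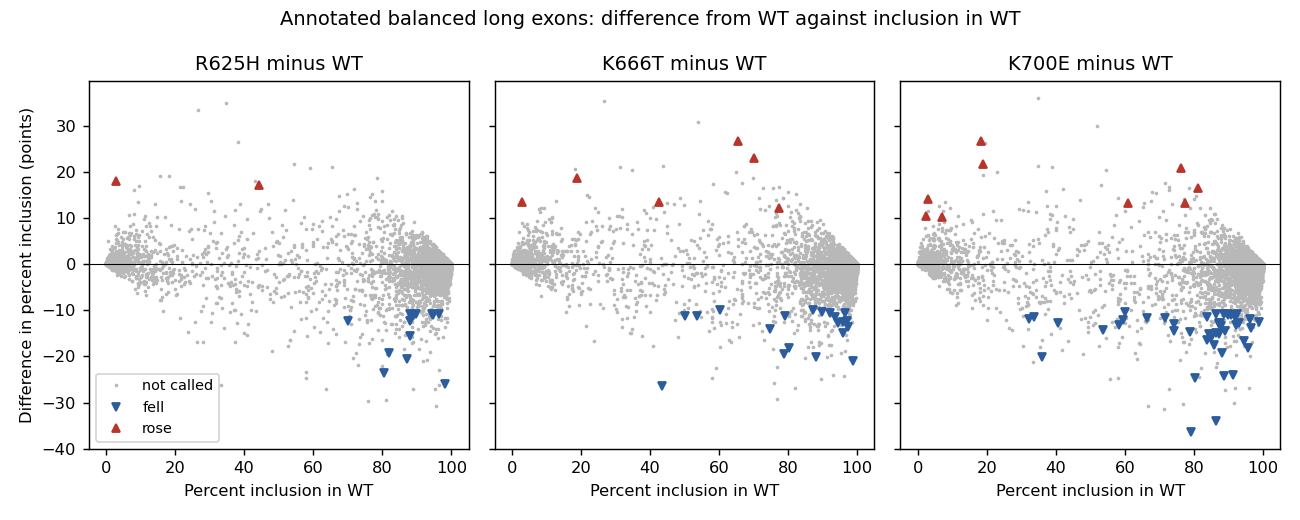
Difference from WT in percent inclusion (y axis, points) against percent inclusion in WT (x axis) for the 6009 annotated balanced long exons, 1 panel per mutant library. Each point is an exon, with those that fell, those that rose and those not called drawn apart by colour; most of the falls sit above 50% inclusion in WT.

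Falls were most frequent among exons that WT included often but not always. In K700E 30 of 793 exons (3.78%) at 50 to 90% inclusion in WT fell, 10 of 1726 (0.579%) at 90 to 98%, 1 of 2510 (0.0398%) at 98 to 100% and 4 of 352 (1.14%) at 10 to 50%. At 50 to 90% the share was 1.14% in R625H and 1.26% in K666T, and 0, 3 and 4 exons there rose in R625H, K666T and K700E. WT inclusion sets the band and also enters the difference, and its part in this pattern was not tested. Among shorter annotated balanced exons at 50 to 90%, 2.85% of the 1857 of 51 to 150 nt and 1.82% of the 274 of 10 to 50 nt fell in K700E. The median differences there were -2.41 points for long exons, -1.72 for 51 to 150 nt and -1.63 for 10 to 50 nt in K700E, and -1.43, -0.51 and 0.18 points in R625H. Within the long exons, 0.505% of the 3760 of up to 200 nt and 2.38% of the 210 of over 400 nt fell in K700E, on 19 and 5 exons. The 5 include the 433-nt form of ABHD14B. Between them the shares were 0.925% at 201 to 250 nt, 1.425% at 251 to 300 nt and 0.935% at 301 to 400 nt. The shares thus did not increase at each step. These are descriptions of single pairs of libraries, and length itself was not tested.

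**Figure D4:**
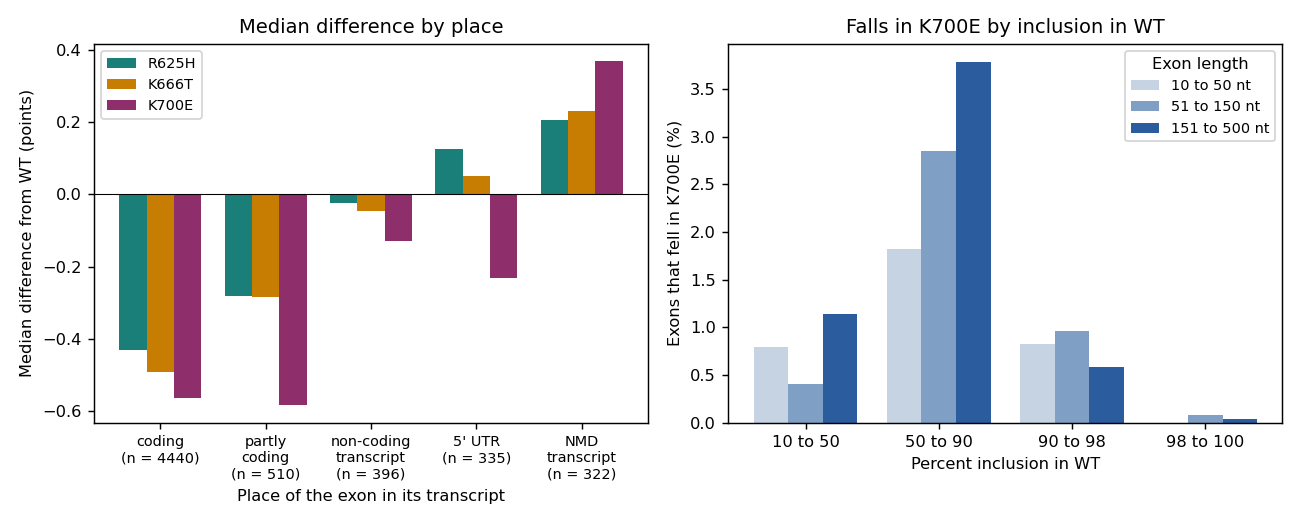
Left, median difference from WT (y axis, points) of annotated balanced long exons by place in the transcript (x axis), 1 bar per mutant library; exons of NMD transcripts are above 0 and coding exons below. Right, percent of exons that fell in K700E (y axis) by percent inclusion in WT (x axis) for 3 length classes; the tallest bar is that of long exons at 50 to 90%.

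Acceptors a short way upstream of an exon's own acceptor took few reads at the exons that were called. Junctions ending 10 to 30 nt before the first base of the exon were read at 820 of the 6009 exons, and their share of the reads at both positions was 0.0772% for WT, 0.132% for R625H, 0.109% for K666T and 0.114% for K700E. At the 13 exons that fell in R625H there were 0 such reads in every library, and at the 45 that fell in K700E there were 4, 22, 9 and 18, against 10862 to 12747 reads at the exon's own acceptor. The highest share at a called exon was 9.23%, at THTPA in R625H, with 0, 6, 0 and 0 such reads in WT, R625H, K666T and K700E beside 38, 59, 79 and 126 at its own acceptor. INTS12 came next at 4%, on 1, 3, 0 and 2 such reads, and TSPO had the most reads, 0, 10, 5 and 3. BRD9 had 0 such reads, because its upstream acceptor opens the 160-nt exon and was counted as the exon's own. That acceptor had 14, 89, 88 and 68 reads in WT, R625H, K666T and K700E, so this measure does not cover the BRD9 rise.

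Some annotated balanced long exons differed between mutant libraries. Between R625H and K666T 1 was called, between R625H and K700E 7 and between K666T and K700E 5, beside 0.0086%, 0.194% and 0.129% of the 23243 exons of all lengths. At an unadjusted p under 0.05, 296, 503 and 425 of the 6009 differed by Fisher's exact test, beside 1295, 2012 and 1699 of the 23243. These shares were near each other, and unadjusted counts include exons that pass by counting error alone. USF2, an E-box transcription factor, has a 201-nt coding exon at chr19:35760706-35760906 at 50.3%, 51.97%, 39.1% and 44.2% in WT, R625H, K666T and K700E, 12.9 points higher in R625H than in K666T (adjusted p = 0.0273, Fisher's exact test). SPEN, a transcriptional repressor, has a 477-nt coding exon at chr1:16202697-16203173 at 91.98%, 82.5%, 82.6% and 96.2%, highest in K700E, where R625H and K666T differed from it by -13.6 and -13.5 points (adjusted p = 0.00596 and 0.00933, Fisher's exact test). PER1, a clock repressor, was at 90%, 80.7%, 90.1% and 94.5%, lower in R625H than in K700E, and NGLY1, the cytosolic N-glycanase, at 90.4%, 86.8%, 81.2% and 91.4%, lower in K666T than in K700E. None of SPEN, PER1 and NGLY1 was called against WT.

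K700E was instead the lowest library for ABHD11, a mitochondrial hydrolase, whose 171-nt exon was at 81.9%, 85.3%, 88.4% and 70.8% in WT, R625H, K666T and K700E. The 239-nt exon of ABHD14B, a lysine deacetylase, was at 87.2%, 86.4%, 85.7% and 72.1%, and a 433-nt form at 86.4%, 86.01%, 84.4% and 75.5%. Both forms share their downstream inclusion and skip junctions and are not independent. Against WT, the 433-nt form lost its K700E call with the upstream inclusion junction by itself (-6.25 points). ANAPC16 (71.8%, 70.4%, 69.01% and 60.05%) and GLMP were lower in K700E than in R625H by 10.4 and 11.5 points. THEM4, a thioesterase, has a 232-nt exon of an NMD transcript at 24.9%, 30.3%, 36.2% and 20.9%, 15.3 points higher in K666T than in K700E (adjusted p = 0.0423, Fisher's exact test).

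The remaining gene lists held few calls. Of 80 exons in 72 zinc finger genes, 1 fell in K666T, ZSCAN12. None of 30 apoptosis exons, 30 interferon exons and 24 exons of matrix and adhesion genes was called in any mutant library by Fisher's exact test, where 0.138%, 0.323% and 0.671% of all annotated balanced exons fell and 0.0947%, 0.12% and 0.138% rose. Over all 119 long members of 31 interferon genes, 6 fell in K700E, beside 1.22% of all cassette exons, and 1 rose in each mutant library. The 6 are all forms of IRF3, a transcription factor of the interferon response, and share junctions with each other, and the one that rose is in ISG15, an interferon-induced ubiquitin-like protein; none is an annotated balanced exon. ADAR, an RNA editing enzyme with an interferon-induced form, has a 183-nt coding exon at 99.7%, 98.8%, 99.7% and 99.6% in WT, R625H, K666T and K700E, and its gene was higher by 0.80 on the log2 scale in K700E. CD151, a tetraspanin, has a 192-nt coding exon at 99.2%, 99.1%, 99.1% and 99.4%.

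The most read annotated exons differed by under 1 point. EEF1A1, the translation elongation factor, has a 180-nt exon with 101302, 90133, 88311 and 109696 inclusion reads and 11, 18, 13 and 26 skip reads in WT, R625H, K666T and K700E. RPS2, a ribosomal protein, has a 174-nt exon with 61124, 51346, 53222 and 37973 inclusion reads and 91, 116, 130 and 92 skip reads. RPS18, a further ribosomal protein, has a 158-nt exon of a non-coding transcript with 28, 71, 60 and 96 inclusion and 71601, 65592, 66599 and 82903 skip reads, low in WT (adjusted p = 0.0003, 0.00918 and 6.29e-06 against WT, Fisher's exact test). PPIA, cyclophilin A, has a 157-nt exon in its 5′ UTR at 0.721%, 1.15%, 1.04% and 0.793%, with adjusted p = 3.01e-08, 3.86e-05 and 0.631 against WT (Fisher's exact test).

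Members that are not annotated exons gave most of the calls over all 33177. Over all members 105 fell in R625H, 195 in K666T and 439 in K700E, and 46, 57 and 85 rose, beside 0.277%, 0.543% and 1.22% of falls and 0.16%, 0.177% and 0.256% of rises over the 86331 cassette exons of all lengths. The long members fell in 0.316%, 0.588% and 1.32% of cases. Members can overlap and share junctions, so these are not counts of separate events. With 1 exon per overlapping set 20, 39 and 73 fell and 4, 6 and 12 rose in R625H, K666T and K700E. Over all long members, 86, 167 and 358 of the falls and 41, 49 and 72 of the rises equal no GENCODE exon. Between mutant libraries 39, 175 and 132 members were called for R625H against K666T, R625H against K700E and K666T against K700E, beside 0.117%, 0.513% and 0.353% over all lengths.

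Many of these segments had reads on 1 inclusion junction and few or none on the other. A 253-nt segment of TUBB had 121, 0, 112 and 238 reads on its upstream inclusion junction in WT, R625H, K666T and K700E and 0, 2, 3 and 1 on the downstream one, which gave 80%, 4.35%, 78.4% and 74.5% inclusion. A 366-nt segment of RPS2 had 3538, 0, 0 and 2391 reads upstream and 10, 14, 12 and 5 downstream, and a 297-nt segment of BTF3 had 424, 0, 0 and 0 and 4, 7, 3 and 4. In 281 members an inclusion junction was at 0 in 1 library, or not listed in its file, and at 50 reads or more in another. Of the 281, 1 is annotated and 41 lie in genes of cytosolic ribosomal proteins, which hold 831 of the 33177 members. With the lower of the pair of inclusion junctions in place of their mean, 11192 long exons were measured, of which 36, 48 and 137 fell.

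At the limits of the rule, the 299 exons of the shortest length had a median inclusion of 94.7% in WT and 90.6% in K700E, and the 378 of 150 nt, just outside, 92.9% and 89.8%. The 46 exons of 500 nt were at 93.9% and 87.7%, and the 41 that were 1 base longer at 93.05% and 85.7%. The 194 long exons whose least read library had 20 reads were at 60% and 51.9%, and the 187 with 19 reads at 56.5% and 53.3%.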

How the data were processed

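RNA from HEK293T cells expressing wild-type or substituted SF3B1 was sequenced as stranded poly(A) libraries, 1 library per group. Per the submitters' processing notes the authors used STAR 2.5.3a and HTSeq on hg19. The deposited files used are junction tables and gene tables, both holding read counts that the authors did not normalize.

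Junctions with motifs 1 to 6 and uniquely mapped reads formed cassette exons as described. Inclusion and skip reads of each library pair were compared with Fisher's exact test (two-sided), adjusted over all 86331 exons, in Python 3.11.15 (scipy 1.17.1, numba 0.67.0), after testing on simulated data. CPM was computed here from the gene counts; log2 gene ratios add a prior count of 10. Exons were matched to GENCODE 29 by 1 constant shift per gene, which placed 15813 of the 18228 protein-coding genes that have 2 or more introns, and positions printed are those of the files. No hg19 genome was used here, so intron sequence was not analysed.

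The members, gene lists and alternatives were chosen with earlier results of these data known. Exons were named by rule: the 8 largest called differences per direction against WT, up to 12 called in all mutant libraries, the 5 largest per direction between mutant libraries, the called or most read exon of each list, and the 8 most read. The rule was applied again within annotated balanced exons after values were seen, and further called exons there are named as well. Some genes and sequences that the rules select are not reported here by name, and counts include them. With 1 library per group, p-values reflect counting error between 2 libraries. Gene lists were SR and hnRNP regulators, spliceosome, known SF3B1 targets, NMD, DNA repair, chromatin, centrosome, apoptosis, trafficking, interferon, ubiquitin, matrix and zinc finger genes.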

Additional observations from a re-analysis of the deposited data

Results flagged for a closer look

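The exons below differed between mutant libraries, by Fisher's exact test of 1 mutant library against another, in which WT takes no part. With 1 library each, they compare libraries, and K700E also differs from the others in plasmid amount. USF2 (201 nt) was 12.9 points higher in R625H than in K666T. R625H was higher than K700E by 14.5 points at ABHD11 (171 nt), 14.3 at ABHD14B (239 nt), 10.35 at ANAPC16 (169 nt) and 11.5 at GLMP (258 nt). R625H minus K700E was -13.8 points at PER1 (180 nt) and -13.6 at SPEN (477 nt). K666T was higher than K700E by 17.6 points at ABHD11, 13.6 at ABHD14B and 15.3 at THEM4 (232 nt). K666T minus K700E was -10.2 points at NGLY1 (165 nt) and -13.5 at SPEN.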

How the results depend on the processing

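The counts and medians were recomputed under each setting named here. No value reversed, and the cause of a move was not tested. Some settings also changed the number of exons measured. Libraries are in parentheses. With the lower inclusion junction, the values were rises 27, 26 and 31 (R625H, K666T, K700E), falls 36, 48 and 137 (R625H, K666T, K700E), median difference -0.17 and -0.32 (R625H, K700E), rises of annotated balanced exons 4 (K700E), falls of annotated balanced exons 80 (K700E) and called between mutant libraries 12, 65 and 37 (R625H against K666T, R625H against K700E, K666T against K700E). With the upstream inclusion junction by itself, the values were rises of annotated balanced exons 4 (R625H), falls 119 and 224 (K666T, K700E), median difference -0.16 and -0.15 (K666T, K700E) and called between mutant libraries 109 and 48 (R625H against K700E, K666T against K700E). With the downstream one by itself, the values were rises of annotated balanced exons 4 (R625H), falls 54 and 89 (R625H, K666T), median difference -0.15 (K666T), falls of annotated balanced exons 95 (K700E) and called between mutant libraries 10 (R625H against K666T). With at least 50 reads, the values were median difference -0.25 (K700E) and called between mutant libraries 24 (R625H against K666T). With 0 reads allowed, the values were rises 92 and 114 (R625H, K666T), rises of annotated balanced exons 1 and 3 (R625H, K666T), median difference 0, 0 and 0 (R625H, K666T, K700E) and called between mutant libraries 146 and 232 (R625H against K666T, K666T against K700E). With multi-mapped reads added, the values were rises 144, 197 and 289 (R625H, K666T, K700E), rises of annotated balanced exons 1 and 3 (R625H, K666T), falls 165 (R625H), median difference -0.10, -0.13 and -0.26 (R625H, K666T, K700E), falls of annotated balanced exons 13 (K666T) and called between mutant libraries 218, 468 and 450 (R625H against K666T, R625H against K700E, K666T against K700E). With summed junctions, the values were rises 75 (R625H), falls 203, 329 and 740 (R625H, K666T, K700E), falls of annotated balanced exons 26, 38 and 103 (R625H, K666T, K700E), median difference -0.19, -0.24 and -0.39 (R625H, K666T, K700E) and called between mutant libraries 91, 315 and 273 (R625H against K666T, R625H against K700E, K666T against K700E). With 1 exon per overlapping set, the values were rises 4, 6 and 12 (R625H, K666T, K700E), rises of annotated balanced exons 1, 2 and 5 (R625H, K666T, K700E), falls 20, 39 and 73 (R625H, K666T, K700E), median difference -0.14 and -0.18 (K666T, K700E) and called between mutant libraries 0, 12 and 8 (R625H against K666T, R625H against K700E, K666T against K700E). With GT-AG motifs, the values were rises of annotated balanced exons 1 (R625H). At a difference of 5 points, the values were rises 70, 87 and 132 (R625H, K666T, K700E), rises of annotated balanced exons 6 and 17 (R625H, K700E), falls 190, 394 and 823 (R625H, K666T, K700E), falls of annotated balanced exons 29, 58 and 114 (R625H, K666T, K700E) and called between mutant libraries 318 and 229 (R625H against K700E, K666T against K700E). At 20 points, the values were rises 24, 29 and 42 (R625H, K666T, K700E), rises of annotated balanced exons 0, 2 and 3 (R625H, K666T, K700E), falls 38, 61 and 121 (R625H, K666T, K700E), falls of annotated balanced exons 3, 3 and 6 (R625H, K666T, K700E) and called between mutant libraries 25, 69 and 45 (R625H against K666T, R625H against K700E, K666T against K700E). Over annotated exons, the values were rises 5, 8 and 13 (R625H, K666T, K700E), falls 19, 28 and 81 (R625H, K666T, K700E), median difference -0.31, -0.35 and -0.47 (R625H, K666T, K700E) and called between mutant libraries 1, 18 and 9 (R625H against K666T, R625H against K700E, K666T against K700E). Over annotated balanced exons, the values were rises 2, 6 and 9 (R625H, K666T, K700E), falls 13, 20 and 45 (R625H, K666T, K700E), median difference -0.33, -0.36 and -0.48 (R625H, K666T, K700E) and called between mutant libraries 1, 7 and 5 (R625H against K666T, R625H against K700E, K666T against K700E). Requiring at least 10 reads, a balance of 0.5 or the skip junction with most skip reads moved no count by over 1.5 times. Of 95 calls of named annotated balanced exons, 70 were kept with the lower inclusion junction, 65 with the upstream one, 75 with the downstream one, 68 with multi-mapped reads, 83 with summed junctions and 17 at 20 points, and none reversed. Depth limits exons near 20 reads, where large differences miss the threshold. No paired analysis was possible because each group has 1 library, and leaving out a replicate was not possible for the same reason. The annotated sets, the balance of 0.5 and the choice of skip junction by skip reads were added after seeing the data.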
